A study of Mus musculus with 54 samples.

Results

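The livers of mice with hyper-accurate mitochondrial translation (Mrps12ha/ha) were compared directly with the livers of mice with error-prone mitochondrial translation (Mrps12ep/ep), across every gene whose level averaged 10 normalized counts or more in the 9 livers sequenced. This rule kept 15314 of the 54356 genes in the liver table, and it used no difference between the genotypes. The groups were 3 Mrps12ha/ha mice and 3 Mrps12ep/ep mice, each homozygous for its own mutation of Mrps12, and 3 wild-type Mrps12+/+ mice, matched by age and litter, are given beside them. All were male C57BL/6 mice of 20 weeks, fed a high-fat diet that supplies 42% of its energy as fat, so the diet is shared by the mutants and the controls and nothing here compares diets. The mutations are in every cell of the animal, so effects that begin in the liver and elsewhere cannot be told apart. RNA came from whole liver, and each mouse was sequenced as 3 technical libraries that the authors pooled, which gave 18 libraries for the 6 mutant livers of 54 in the series.

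MRPS12 is a protein of the small subunit of the mitochondrial ribosome that lies at the decoding centre, where codons are matched with tRNAs. The ribosome it belongs to makes only the core subunits of the respiratory chain and ATP synthase that are encoded in mitochondrial DNA, while all other mitochondrial proteins are made in the cytosol and imported. The liver adjusts its transcription to nutrients, hormones and the time of day, releasing glucose and breaking down amino acids when food is scarce and making lipids and sterols when it is plentiful. Folding stress in the endoplasmic reticulum and in the cytosol raises separate sets of chaperone genes, through ATF6, XBP1 and PERK in the former and through HSF1 in the latter.

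The pooled columns held 64642569, 73408184 and 23805012 reads in the Mrps12ep/ep livers and 21238039, 81518239 and 50529748 in the Mrps12ha/ha livers, as recovered from the normalized counts, so Mrps12ep/ep mouse 3 and Mrps12ha/ha mouse 1 were the shallowest. Hepatocyte markers were abundant in every liver, with a summed level of 7719850, 7268640 and 7460560 normalized counts in Mrps12ep/ep and 7218790, 6804040 and 7503780 in Mrps12ha/ha mice. Markers of other cells were not evenly spread. The summed level of 14 skeletal muscle markers was 33261, 45552 and 64.4 in Mrps12+/+ mice, 222, 79.4 and 153 in Mrps12ep/ep mice and 140.4, 60.6 and 1414 in Mrps12ha/ha mice, so muscle RNA was high in the first and second wild-type livers and present in Mrps12ha/ha mouse 3. The 7 erythroid markers summed to 184060, 61636 and 78404 in Mrps12ha/ha mice against 56592, 96688 and 48233 in Mrps12ep/ep mice, with mouse 1 of the former highest. The 14 Kupffer cell and macrophage markers summed, in Mrps12ep/ep and then Mrps12ha/ha mice, to 25626, 18659.6 and 28391 against 18812, 13969.5 and 28470.1, ranges that overlap. Acute phase genes were high in wild-type mouse 3, at a mean of 2.28 against 0.10 and -0.43 in wild-type mice 1 and 2 (log2 deviation from the mean of the 9 livers). In bulk liver, fewer cells of a type and less RNA per cell cannot be told apart. On the first principal component of the 6 mutant livers, which carried 28.9% of the variance, the Mrps12ep/ep mice lay at -37.0, 4.24 and -43.9 and the Mrps12ha/ha mice at 35.9, 8.90 and 31.8, so the second mouse of each genotype was closest to the other group. On the second component (20.7%), mouse 2 of Mrps12ep/ep and of Mrps12ha/ha lay together, at -37.6 and -28.1. The other mutant livers lay from 1.07 to 36.4 on it.

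Only 1 of the 15314 genes (0.00653%) differed between the mutants at an adjusted p under 0.05 (limma on log2 values, Benjamini-Hochberg over all tested genes), and it was lower in Mrps12ha/ha. At an unadjusted p under 0.05 there were 1320 genes (8.62%), of which 639 (4.17%) were higher and 681 (4.45%) lower in Mrps12ha/ha. For 2730 genes the values of the mutants were fully separated, with no overlap between the groups (17.8%), 1350 higher (8.82%) and 1380 lower (9.01%). The median log2 fold change over all genes was -0.0017, with 7611 genes (49.7%) above 0 and 7695 (50.2%) below. For any 1 gene the exact two-sided permutation test over 3 against 3 mice cannot give a p under 0.1, the value of every gene whose groups did not overlap. Fitted on the 6 mutant livers alone, without the wild-type mice, 18 genes (0.118%) passed, 16 of them lower in Mrps12ha/ha. The count at an unadjusted p under 0.05 was 873 without Mrps12ep/ep mouse 1 and 803 without Mrps12ha/ha mouse 3.

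**Figure D1:**
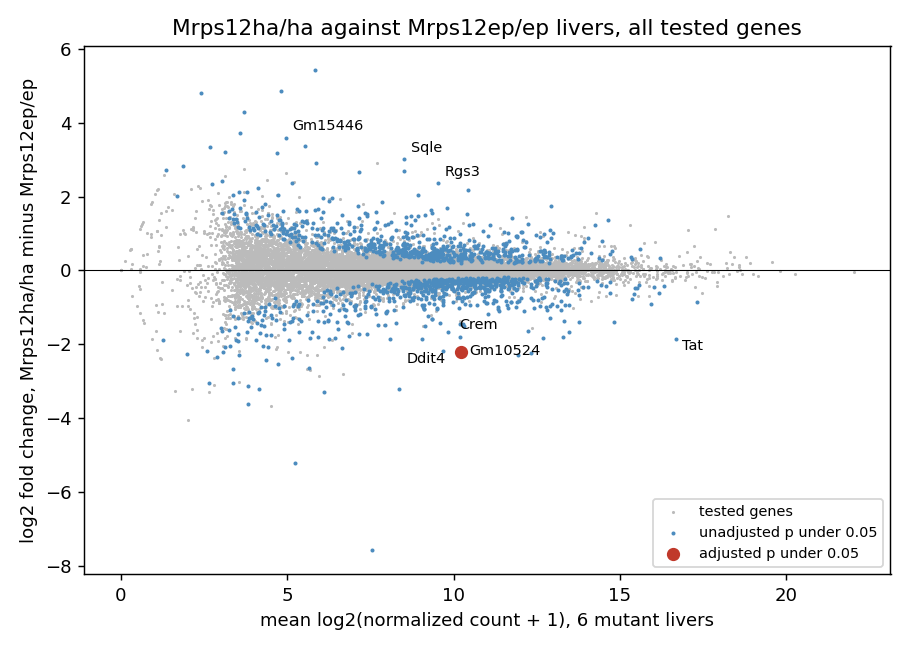
Each point is 1 of the 15314 tested genes, with its mean log2(normalized count + 1) over the 6 mutant livers on the horizontal axis and its log2 fold change, Mrps12ha/ha minus Mrps12ep/ep, on the vertical axis. Blue points have an unadjusted p under 0.05 (1320 genes) and the red point, Gm10524, is the only gene with an adjusted p under 0.05.

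The gene that passed was Gm10524, an unconfirmed transcript of the annotation at chr18:82692284-82694176 (GRCm38, plus strand) whose first bases overlap the start of Zfp236 on the opposite strand. Its level was 2522, 3134 and 2171 normalized counts in the Mrps12ep/ep livers and 521, 695 and 489 in the Mrps12ha/ha livers, and the wild-type livers, at 1545, 1841 and 1422, lay between them without overlap. The log2 difference, Mrps12ha/ha minus Mrps12ep/ep, was -2.20 (SE 0.18, adjusted p = 0.00623, limma), with means of 2609 ± 487 and 568 ± 111 (SD, n = 3 mice each). The authors quantified the reads with a stranded library setting, so reads were assigned by strand. The call was lost without Mrps12ep/ep mouse 1 (adjusted p = 0.0732) or without Mrps12ha/ha mouse 3 (adjusted p = 0.0587), and the adjusted p ran from 0.000357 to 0.0732 over the alternative settings. AC158975.2, a lincRNA that starts just downstream on the same strand (chr18:82694287-82701336) and was named after its values were seen, was also lower, at 14721, 10109 and 12913 in Mrps12ep/ep and 3215, 4832 and 2742 in Mrps12ha/ha livers (log2 difference -1.83, adjusted p = 0.066). A further pair of neighbours on chromosome 5, Gm42427 and Gm42429, likewise chosen after their values were seen, had log2 differences of -1.38 (adjusted p = 0.066) and -1.37 (adjusted p = 0.109) with no overlap between the mutants. Gm42428, which lies between them on the same strand, overlapped, at 673, 313 and 839 in Mrps12ep/ep and 233, 1022 and 342 in Mrps12ha/ha livers (log2 difference -0.37, adjusted p = 0.907). On the mutant livers alone AC158975.2, Gm42427 and Gm42429 passed (adjusted p of 0.0424, 0.0266 and 0.021, limma). Gm4316, also named after its values were seen, had the smallest adjusted p there (0.00712, against 0.109 with all 9 livers). Gm15446, named in the same way, was higher in Mrps12ha/ha (log2 difference 3.60, adjusted p = 0.106).

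Tat and Sds, enzymes of amino acid breakdown, were lower in each Mrps12ha/ha liver than in each Mrps12ep/ep liver. Tat, tyrosine aminotransferase, which glucocorticoids and glucagon induce, was at 231094, 185338 and 184606 normalized counts in the Mrps12ep/ep mice and 60991, 58176 and 47198 in the Mrps12ha/ha mice. Every Mrps12ha/ha mouse was below every other mouse in the liver table, the wild-type mice at 220456, 126481 and 138916 included. The log2 difference was -1.85 (SE 0.23, adjusted p = 0.0706, and 0.021 on the mutant livers alone, with 0.00754 to 0.558 over the alternative settings given in the closing section). Sds, serine dehydratase, which feeds serine into glucose production, stood at 27433, 19282 and 21717 in Mrps12ep/ep and 9529.7, 8334 and 7754 in Mrps12ha/ha mice (log2 difference -1.41, adjusted p = 0.417, 0.0266 on the mutant livers alone and 0.0204 to 0.912 over the alternatives).

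Of the 22 genes of glucose metabolism 11 were higher and 11 lower in Mrps12ha/ha, none passed the adjusted threshold, and 7 did not overlap, 5 lower (22.7%, against 9.01% of all genes) and 2 higher (9.09%, against 8.82%). Their median was 0.016, which was -0.16 without Mrps12ep/ep mouse 1 and changed sign in 4 of 24 alternatives. Pck1 and G6pc, of gluconeogenesis, were among the lower members, and from here the levels of the 3 Mrps12ep/ep livers stand before those of the 3 Mrps12ha/ha livers. Pck1, which makes phosphoenolpyruvate from oxaloacetate, was at 217010.4, 231281 and 215844 in Mrps12ep/ep and 148649.9, 116392 and 103772 in Mrps12ha/ha livers, without overlap (log2 difference -0.86, adjusted p = 0.417). G6pc, which releases free glucose, was at 25494, 23327 and 14244 against 8906, 4324 and 6789 (log2 difference -1.67, adjusted p = 0.46). Igfbp1, an insulin-like growth factor binding protein that FoxO1 induces and insulin represses, was at 12973, 7486 and 6349.8 against 2520.5, 2132 and 3731, again without overlap, in a list of 23 genes of insulin, FoxO and growth hormone signalling of which 12 were higher and 11 lower. Ppargc1a, a coactivator of these genes, overlapped between the groups (1453, 696 and 917 against 540.3, 728 and 494). Neither Pck1, G6pc nor Igfbp1 passed the adjusted threshold.

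Of the 42 genes of the urea cycle and amino acid breakdown, 30 were lower and 12 higher in Mrps12ha/ha, none passed the adjusted threshold and 15 did not overlap, 11 of them lower (26.2%, against 9.01% of all genes). Their median was -0.21, and -0.13 without Mrps12ep/ep mouse 1 or without mouse 3 of that genotype. Ddc, which decarboxylates aromatic amino acids, was lower (2918, 2574 and 2943 against 1654, 1475 and 1459), while Prodh, proline dehydrogenase, was higher (7536, 8518 and 9393 against 10548, 12335 and 10688). The 12 periportal genes, which mark hepatocytes around the portal vein where amino acids and lactate are turned into glucose and urea, had 10 members lower, 7 of them without overlap (58.3%, against 9.01% of all genes), and a median of -0.68. Sds, Pck1, Gls2, Hal and Ass1 of that list are also enzymes of these pathways, so the lists share members. Relative to the wild-type livers, which both comparisons share, the periportal median was 0.79 in Mrps12ep/ep and 0.36 in Mrps12ha/ha. For the urea cycle and amino acid list these medians were 0.43 and 0.30. The wild-type livers spread widely in mean periportal level, at 0.37, -0.38 and -1.09 (log2 deviation from the mean of the 9 livers). Pericentral genes, of hepatocytes around the central vein, had 10 of 12 members higher and a median of 0.34, which was 0.19 without Mrps12ep/ep mouse 1.

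Crem, Trp53inp1 and Ddit4 were among the 12 lower genes with the smallest p. Crem, whose products bind cyclic AMP response elements, was at 1364, 1216 and 1456 in Mrps12ep/ep and 745, 766 and 734 in Mrps12ha/ha livers (log2 difference -0.84, SE 0.11, adjusted p = 0.0817, 0.0412 on the mutant livers alone and 0.00754 to 0.558 over the alternatives). Trp53inp1, a p53-induced regulator of autophagy, was at 6965, 5974 and 6401 against 3461, 2804 and 2784. Ddit4, an inhibitor of mTORC1 that stress and glucocorticoids induce, was at 2012, 1913 and 1383 against 562, 284 and 364 (log2 difference -2.17, adjusted p = 0.151, 0.0415 on the mutant livers alone and 0.0397 to 0.671 over the alternatives). For Crem and Trp53inp1 the wild-type livers were close to the Mrps12ep/ep livers, at 1337, 1236 and 1079 and 9932, 6429 and 6728. Tsc22d3, a glucocorticoid-induced gene, named after its values were seen, passed on the mutant livers alone, with an adjusted p of 0.021 against 0.417 with the wild-type livers in the fit and 0.0168 to 0.912 over the alternatives. Slc38a2, which imports small neutral amino acids, and Noct, nocturnin, whose transcript cycles through the day, named after its values were seen, were lower too, at 14708, 8738 and 8496 against 5191, 5170.2 and 4374 and at 10498, 6413 and 9670.1 against 3396, 1318 and 1240.4.

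**Figure D2:**
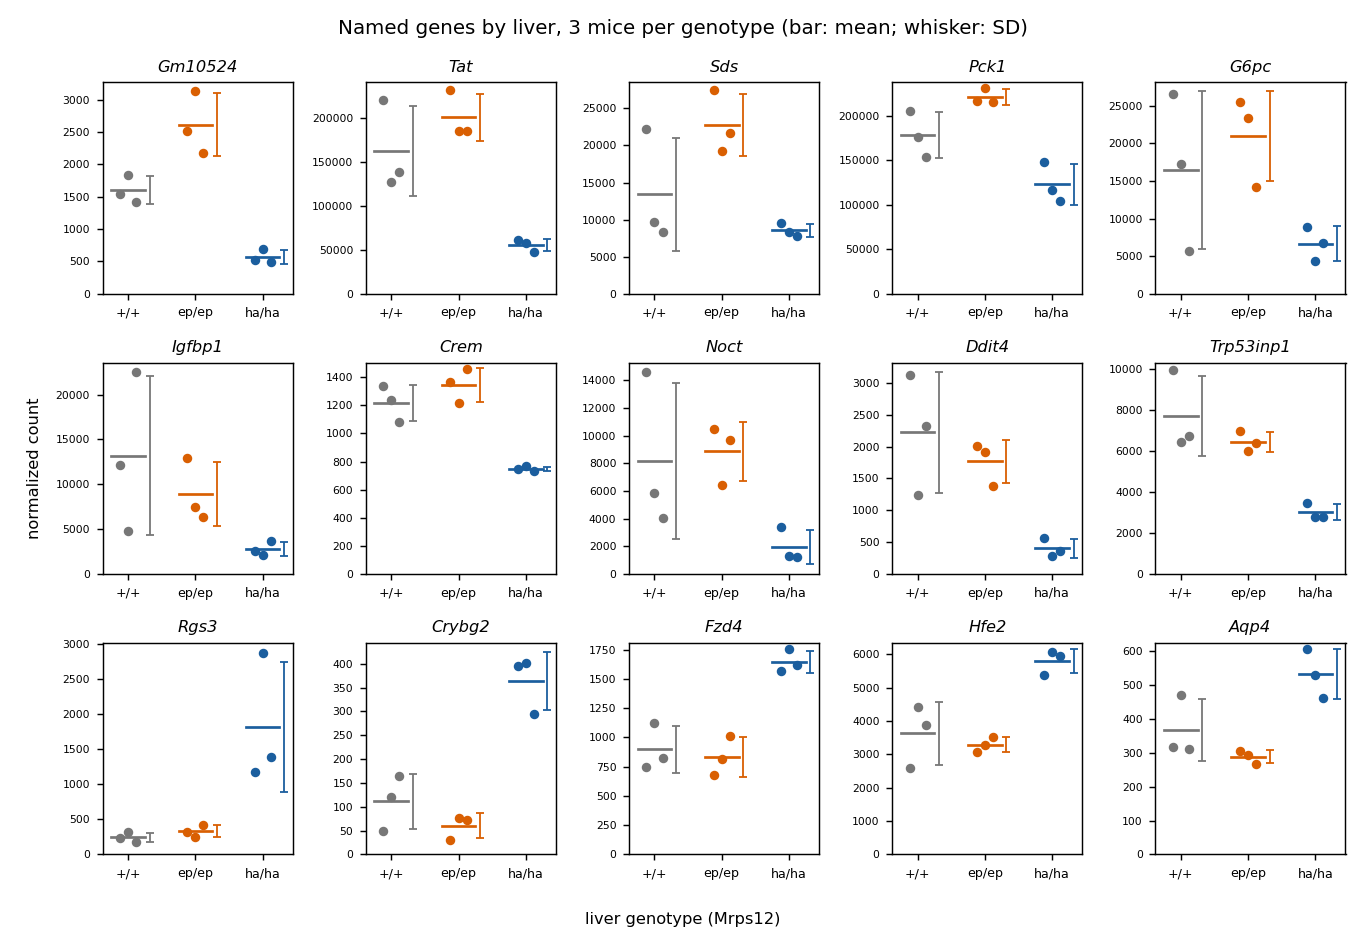
Normalized counts of 15 genes in each liver, with points for single mice, a bar for the mean and a whisker for the SD of 3 mice per genotype. The lower panels show Rgs3, Crybg2, Fzd4, Hfe2 and Aqp4, which were higher in each Mrps12ha/ha liver than in each Mrps12ep/ep liver, and the other 10 genes were lower in Mrps12ha/ha.

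None of the genes higher in Mrps12ha/ha passed the adjusted threshold in the main fit of all 9 livers by genotype. With the replicate block added to that fit, 1 higher gene passed. Rgs3, which turns off G protein signals, was at 314, 255 and 422 normalized counts in Mrps12ep/ep and 1178, 2878 and 1385 in Mrps12ha/ha livers (log2 difference 2.37, SE 0.34, adjusted p = 0.109, with 0.0397 to 0.558 over the alternatives), and it passed where the 9 livers were weighted by their spread (array weights). Hfe2, hemojuvelin, a co-receptor that raises hepcidin, was at 3068, 3281 and 3538 against 5396, 6065 and 5954, and passed on the mutant livers alone (adjusted p = 0.0266, 0.0266 to 0.912 over the alternatives and 0.417 with all 9 livers). Hamp, which encodes hepcidin, the hormone that limits iron export to blood, was lower, at 32079, 9496 and 21127 against 4227, 4926 and 7337 (log2 difference -1.80, adjusted p = 0.417), and its copy Hamp2 had 13337, 6029 and 9384 against 4219.8, 3039 and 2236. Reads can be split uncertainly between such near-identical genes. Fzd4, a Wnt receptor, was at 676, 812 and 1012 against 1568, 1752 and 1619.9. Sun2, a nuclear envelope protein, and Atp5g2, a gene for the c subunit of ATP synthase, had log2 differences of 0.63 and 0.56, with narrow ranges in both mutants for Atp5g2 (813, 796 and 750.2 against 1169, 1175 and 1124). Slc27a1 and Slc2a5, which carry fatty acids and fructose, and Aqp4, a water channel, were at log2 differences of 0.92, 1.09 and 0.87.

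Chaperone genes of the endoplasmic reticulum were lower in Mrps12ha/ha livers. Of 21 tested genes of its unfolded protein response 20 were lower in Mrps12ha/ha, 15 of them without overlap (71.4%, against 9.01% of all genes) and the same number at an unadjusted p under 0.05 (against 4.45%), while none passed after adjustment. The median was -0.44, between -0.57 and -0.36 when 1 liver was left out. Hspa5, the main luminal chaperone BiP, was at 53860.4, 59902 and 51941 normalized counts in the Mrps12ep/ep livers and 25769, 41189 and 31973 in the Mrps12ha/ha livers (log2 difference -0.77, SE 0.20, adjusted p = 0.417). Sdf2l1, a partner of BiP, was at 1367, 2042 and 1547 against 633, 1098 and 733. Dnajb9, Manf, Pdia4 and Herpud1, a co-chaperone, a secreted stress factor, a disulfide isomerase and a degradation factor, had log2 differences of -0.75, -0.76, -0.63 and -0.63, all without overlap. The transcription factors upstream had log2 differences of -0.048 for Atf6 and 0.13 for Xbp1, a level that does not show its splicing. Beside the wild-type livers, which both mutants share, the median of the list was -0.044 in Mrps12ep/ep and -0.51 in Mrps12ha/ha.

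Promoters of such genes can carry the endoplasmic reticulum stress element, CCAAT, 9 further bases and CCACG, read by NF-Y with ATF6 or XBP1. It was searched on both strands of the RefSeq promoters (GRCm38.p6, 250 bases before to 50 after the start) and found in 8 of the 18 list members with a promoter (44.4%), against 20 of 11245 tested genes (0.178%). The members were listed for their known part in this response, so the match describes the list. Of the genes named above, Hspa5 alone is among the 8. The sites of 4 members are shown as examples on the strand of the gene, with the element in capitals. In Creld2 the element lies on the other strand. They are Hspa5 at chr2:34772020-34772049 (plus), Syvn1 at chr19:6046527-6046556 (plus), Dnajc3 at chr14:118937822-118937851 (plus) and Creld2 at chr15:88819515-88819544 (plus).
Hspa5: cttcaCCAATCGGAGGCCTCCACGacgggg
Syvn1: cgcaaCCAATCGGCGGTAGCCACGggaaca
Dnajc3: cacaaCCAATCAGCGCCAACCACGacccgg
Creld2: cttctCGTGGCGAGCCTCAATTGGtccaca

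Cytosolic heat shock genes were lower as well, in 12 of 13 members with 8 not overlapping, all lower (61.5%, against 9.01% of all genes), and a median of -0.50. Hspa1b and Hspa1a, the inducible HSP70 genes, were at 1188, 2806 and 2561 and 168, 198 and 175 in Mrps12ep/ep and at 828, 714 and 709 and 128, 51.9 and 46.8 in Mrps12ha/ha livers. They are near-identical copies, so the split between them is uncertain. Dnajb1, their co-chaperone, was at 1492, 2157 and 1665 against 1095, 1047 and 1031, with the Mrps12ha/ha mice almost equal (log2 difference -0.73, adjusted p = 0.417). Hsph1 and Bag3, exchange factors for HSP70, had log2 differences of -0.86 and -0.56. The heat shock element bound by HSF1 was in 1 of 8 promoters of the list (12.5%) and in 0.578% of all tested promoters. A search for the cyclic AMP response element, TGACGTCA, in the glucose metabolism list found it in 0 of 18 promoters, against 3.35% of all tested promoters.

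**Figure D3:**
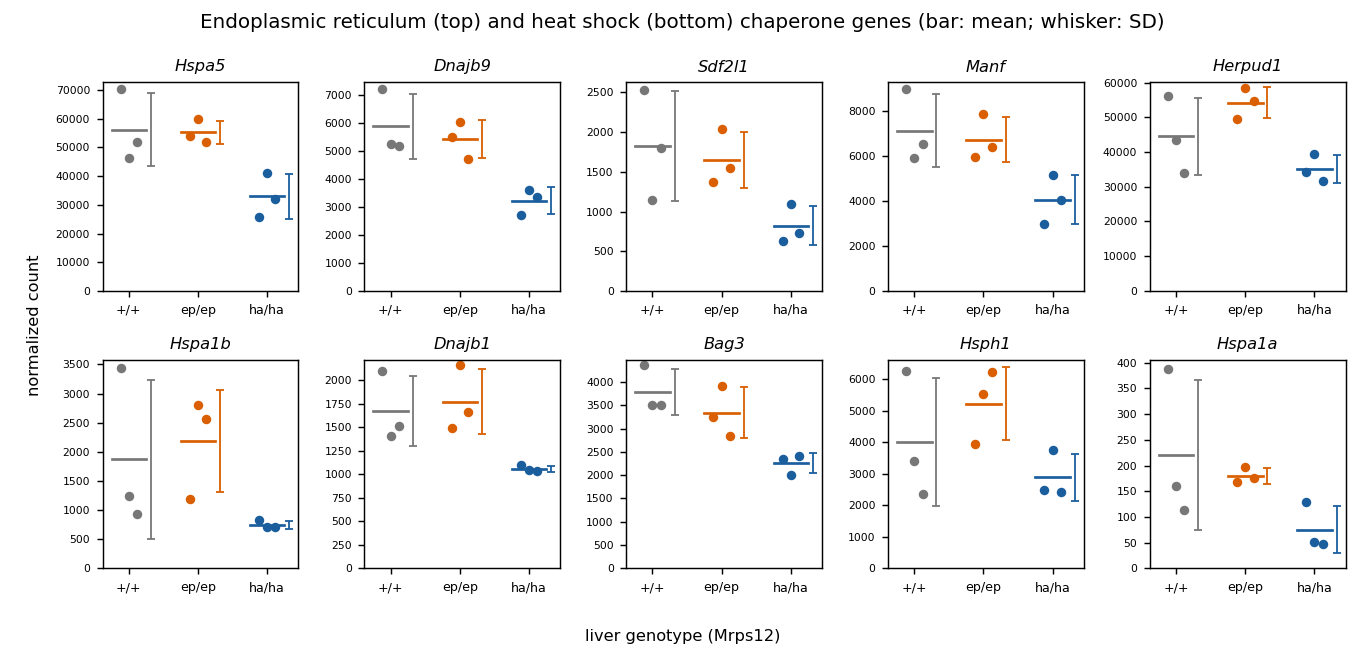
Normalized counts of 5 endoplasmic reticulum genes (upper row) and 5 heat shock genes (lower row) in each liver, with the mean as a bar and the SD of 3 mice as a whisker. In all 10 panels the 3 Mrps12ha/ha livers lie below the 3 Mrps12ep/ep livers, and the spread of the wild-type livers differs between panels.

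The integrated stress response, in which ATF4 raises amino acid and redox genes after phosphorylation of eIF2, was less uniform. Of 32 tested members 19 were lower and 13 higher, 6 did not overlap, all lower (18.8%, against 9.01% of all genes), and the median was -0.14, or -0.057 without Mrps12ep/ep mouse 2 and -0.09 without Mrps12ha/ha mouse 2. Atf4 was at 5511, 5632 and 4270.2 in Mrps12ep/ep and 3898, 3822 and 4975 in Mrps12ha/ha livers and Ddit3, its target CHOP, at 749, 1095 and 595 against 464, 605 and 556, and both overlapped. Sesn2 and Atf5, further targets, were lower without overlap (log2 differences of -0.58 and -0.40). Fgf21, the hormone that mitochondrial stress releases, differed by 0.061 (adjusted p = 0.981).

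Cholesterol synthesis genes were higher in Mrps12ha/ha than in Mrps12ep/ep in 18 of 20 cases, with 15 not overlapping, all higher (8.82% of all genes were) and a median of 0.67. Sqle, squalene epoxidase, was at 92.5, 109.9 and 204 normalized counts in Mrps12ep/ep and 1495, 304 and 2454 in Mrps12ha/ha livers, and at 2470.4, 2958 and 9252 in wild-type livers (log2 difference between the mutants 3.01, SE 0.75, adjusted p = 0.417). Idi1, which isomerises isopentenyl diphosphate, was at 2096, 1837 and 2366 against 6248, 3473 and 8215, below the wild-type livers at 11105, 13110.2 and 21914. In each of these genes Mrps12ha/ha mouse 2 was nearest to the Mrps12ep/ep mice. Nsdhl, Cyp51 and Tm7sf2, of the later steps, had log2 differences of 1.07, 1.04 and 0.67. Hmgcs1, an early enzyme of the pathway, overlapped between the groups, at 5928, 7664 and 6632 against 10839, 7319 and 13446. Relative to the wild-type livers, which both comparisons share, the list's median was -1.48 in Mrps12ep/ep and -0.88 in Mrps12ha/ha.

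Of 12 genes of SREBP2 control and sterol uptake 10 were higher and 2 lower in Mrps12ha/ha, and of 16 genes of sterol efflux and bile acids 7 were higher and 9 lower. Stard4, a sterol carrier, Npc1, which exports cholesterol from lysosomes, and Tmem97 were higher without overlap (log2 differences of 0.49, 0.53 and 0.53), and Insig1, which retains SREBP in the endoplasmic reticulum, was lower (-0.45). Abcg5, which exports sterols into bile, was at 16688, 4605 and 8234 against 4463, 4723 and 4051, with Mrps12ep/ep mouse 1 far above the other mice. Nr0b2, a bile acid-induced repressor, was lower (3000.1, 5589 and 3058 against 1794, 1823 and 1759), Cyp7a1, the rate-limiting enzyme of bile acid synthesis, overlapped (879.6, 473 and 2630 against 402, 676 and 758), and Cyp8b1 did not (4735, 13599 and 11949 against 16275, 19043 and 18807). The sterol response element TCACNCCAC was found in 1 of 15 promoters of cholesterol synthesis genes (6.67%, against 1.46% of all tested promoters), that of Hmgcs1 at chr13:119690204-119690233 (plus), shown here with the element in capitals.
Hmgcs1: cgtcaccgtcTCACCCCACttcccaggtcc

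**Figure D4:**
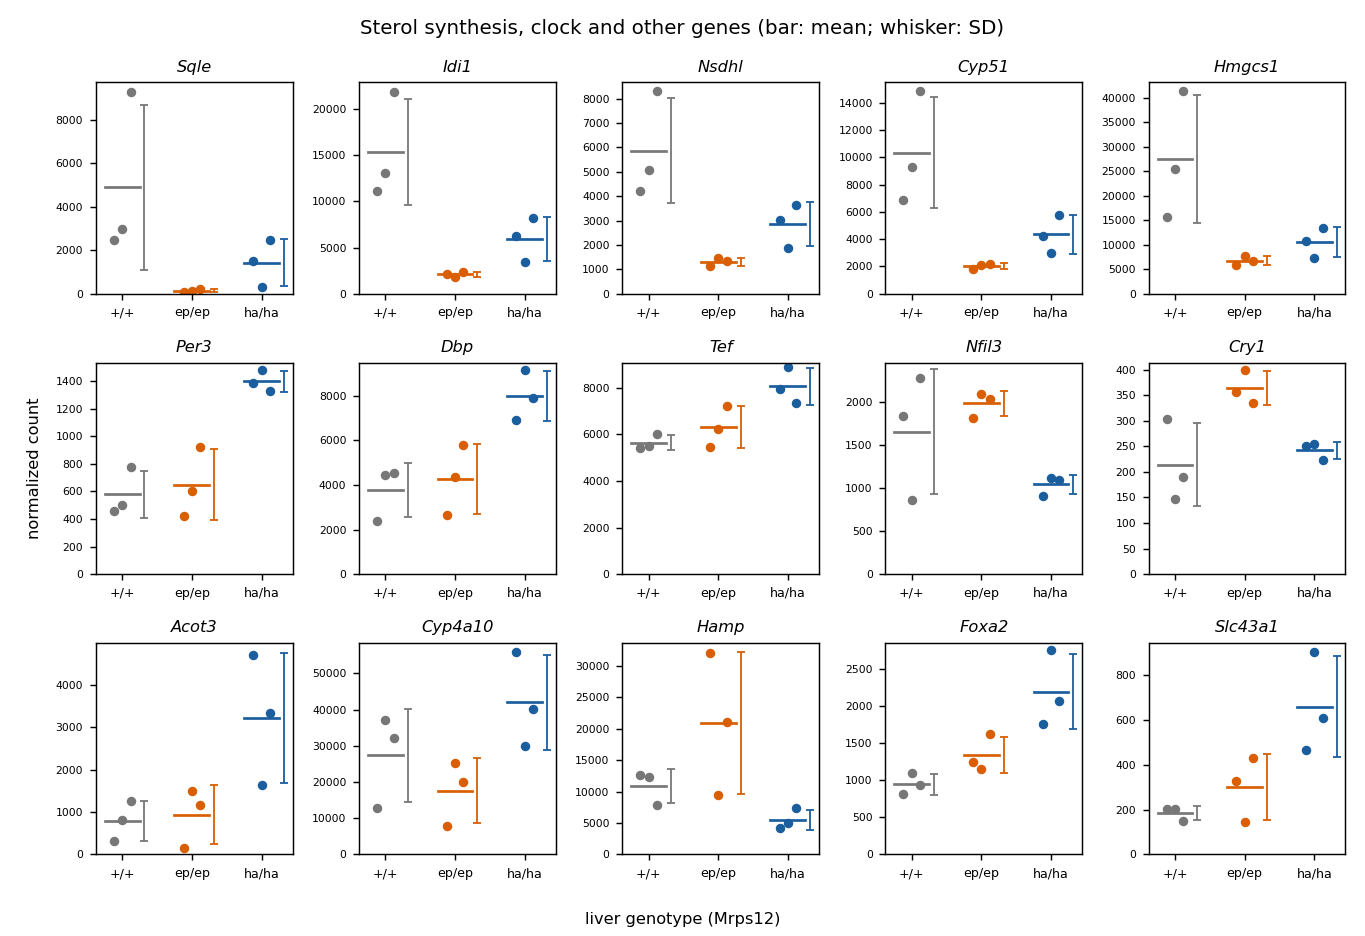
Normalized counts of 15 genes in each liver, with the mean as a bar and the SD of 3 mice as a whisker. In the upper row the group means of the sterol synthesis genes are lowest in Mrps12ep/ep, intermediate in Mrps12ha/ha and highest in wild type; below are clock genes and then Acot3, Cyp4a10, Hamp, Foxa2 and Slc43a1.

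All 39 genes of PPARA signalling, fatty acid oxidation and ketone synthesis had a log2 fold change above 0, where 49.7% of all genes did, with a median of 0.32. Of them 12 did not overlap (30.8%, against 8.82% of all genes higher without overlap) and the rest overlapped. An unadjusted p under 0.05 was reached by 4 members (4.17% of all genes did in that direction), and none passed the adjusted threshold. Acot3, a peroxisomal thioesterase, was at 156, 1490.3 and 1178 against 4705, 1631 and 3336, Cyp4a10, which hydroxylates fatty acids, at 7761, 25164 and 19979 against 55924, 29830.1 and 40256. Mrps12ep/ep mouse 1 was the lowest of the 6 mutants in both, and leaving it out brought the median of the list to 0.16. Genes of lipid droplets were higher in 17 of 22 cases (median 0.26, from 0.083 without Mrps12ep/ep mouse 1 to 0.44 without Mrps12ha/ha mouse 2), among them Lipe, hormone-sensitive lipase, at 452, 686 and 664 against 1135, 1278 and 1459.8. Of fatty acid synthesis, Gpam, Fads1 and Acacb were higher (0.49, 0.32 and 0.91 on the log2 scale), and Srebf1 was lower (-0.68) and overlapped.

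Of 20 clock genes 13 were higher and 7 lower, and none passed the adjusted threshold. The groups did not overlap for 6 higher members (30%, against 8.82% of all genes) and 4 lower members (20.0%, against 9.01%). Per3, Dbp and Tef were higher in Mrps12ha/ha. Per3 stood at 420.2, 605 and 926 in Mrps12ep/ep and 1389.9, 1480.4 and 1327 in Mrps12ha/ha, and Dbp at 2652, 4342 and 5813 against 6926, 9149 and 7899. Nfil3, which represses the sites that DBP and TEF activate, was lower, at 1819, 2095 and 2033 against 909, 1121 and 1094 (log2 difference -0.93, adjusted p = 0.48, 0.0415 on the mutant livers alone and 0.0415 to 0.912 over the alternatives), as were Cry1 and Arntl (-0.58 and -0.71), while Nr1d1, which peaks in the day, overlapped (5212, 8408 and 11135 against 6671, 10743 and 9411). The time of day at which the mice were killed is not given in the sources used here. The site of DBP and NFIL3, TTATGTAA, occurred in 1 of 17 clock promoters (5.88%, against 0.747% of all tested promoters), that of Per3, where both copies are shown with the site in capitals (chr4:151044805-151044834 and chr4:151044852-151044881, minus strand).
Per3 nearer to the start: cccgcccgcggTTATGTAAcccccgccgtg
Per3 farther from the start: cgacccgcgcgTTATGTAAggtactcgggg

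Transcription factors of hepatocytes were higher in 18 of 26 cases (median 0.23). Foxa2, a pioneer factor of the liver, was at 1243, 1154 and 1616 in Mrps12ep/ep and 1761, 2749 and 2063 in Mrps12ha/ha livers (log2 difference 0.70, SE 0.19, adjusted p = 0.417), Gata4 at 545, 641 and 630.3 against 854, 879.8 and 912, and Cebpa at 10501, 11769 and 13361 against 16189, 20126 and 18358. Hnf4a differed by -0.038. Slc43a1, a transporter of large neutral amino acids, was at 327, 143 and 433 against 466, 906 and 609 (log2 difference 1.22, adjusted p = 0.48). Major urinary proteins, pheromone carriers that growth hormone pulses induce, were higher in 19 of 21 genes (median 0.76, or 0.36 without Mrps12ha/ha mouse 2 and 1.16 without mouse 1), and 2 did not overlap, both higher (9.52%, against 8.82% of all genes); their sequences are near-identical, so single members are uncertain. Socs2 and Cish, targets of growth hormone signalling, were at 278, 185 and 879 against 814, 1747 and 989 and 586, 236 and 393 against 562, 1998 and 1231, with overlap, and Bcl6, a repressor of that axis, was lower (655, 1965 and 3354 against 588, 502 and 452).

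The lists of mitochondrial genes had small median log2 differences, while some single members differed more. Mrps12 was at 1790.5, 1780.2 and 1698 normalized counts in Mrps12ep/ep and 1626, 1914 and 1847 in Mrps12ha/ha livers (log2 difference 0.029, SE 0.097, adjusted p = 0.961); the count does not tell the alleles apart and is no check of genotype. The 78 mitochondrial ribosomal protein genes had a median of -0.0072 with 7 members not overlapping, 5 lower (6.41%, against 9.01% of all genes) and 2 higher (2.56%, against 8.82%). The 20 mitochondrial tRNA synthetase genes had a median of 0.06, with Pars2 highest at 0.79. Of them 2 were higher without overlap (10.0%, against 8.82% of all genes). The 28 genes of mitochondrial chaperones, proteases and import had a median of 0.0068. Among these, 4 were higher without overlap (14.3%, against 8.82% of all genes), Grpel2 by 0.80 and Timm17a by 0.44, and 2 were lower (7.14%, against 9.01%). Of 78 nuclear genes of oxidative phosphorylation 69 were above 0, but by a median of only 0.078, which ran from -0.004 without Mrps12ep/ep mouse 1 to 0.17 without mouse 2, and 6 did not overlap, all higher (7.69%, against 8.82% of all genes). Acad9, Gatb, Slc2a2 and Acsm1 differed by 0.27, 0.17, 0.26 and 0.064 on the log2 scale, with adjusted p of 0.687, 0.794, 0.717 and 0.921 (limma). Cyp2a5, a coumarin hydroxylase, was at 33919, 38595 and 47736 against 53451, 53279 and 43826, above the wild-type livers at 20144, 19055 and 9317 in both mutants, and its relative Cyp2a22 was listed at 2.4 or less in every mutant liver and at 285, 518 and 1180.5 in wild type.

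Immune lists were not all on the same side. Of 37 interferon-stimulated genes 31 were lower (median -0.23, 6 without overlap (16.2%, against 9.01% of all genes), with medians of -0.36 without Mrps12ep/ep mouse 2 and -0.14 without mouse 3), and Isg15, a ubiquitin-like protein, was at 535, 432 and 510.5 against 324, 326 and 309.8. Of 26 acute phase genes 19 were lower and 7 higher, with 8 lower without overlap (30.8%, against 9.01% of all genes). Another 3 were higher without overlap (11.5%, near the 8.82% of all genes), namely Mt1, Mt2 and Serpina3n, named after their values were seen. Among the lower ones was Saa3, at 368, 291 and 402 against 102, 149.5 and 129. The 14 macrophage markers were each below 0 (median -0.30, from -0.51 without Mrps12ha/ha mouse 3 to -0.1 without mouse 2). Of them 1, Gpnmb, was lower without overlap (7.14%, against 9.01% of all genes). The 6 B cell markers were each above 0 (median 0.34, and -0.15 without Mrps12ha/ha mouse 1), with Ighm, the heavy chain of IgM, at 638, 1203 and 1025 against 2994, 621 and 1179. Of 8 T and NK cell markers 7 were below 0, as were the 4 neutrophil markers tested, all with overlap. The part of these cells in the immune values was not tested. Glutathione transferases Gsta4 and Gsta2 were lower without overlap, at 3209, 3114 and 3038 against 2064, 1918 and 1435 and 2456, 1419 and 1998 against 966, 691 and 521. Their list of 45 phase II conjugation genes had 25 members higher and 20 lower. Of those genes 3 were lower without overlap (6.67%, against 9.01% of all genes) and 4 higher (8.89%, against 8.82%). Of 21 NRF2 targets 14 were lower (median -0.071), 2 of them without overlap (9.52%, near the 9.01% of all genes), and 1 was higher without overlap (4.76%, against 8.82%). Ccnd1, cyclin D1, was at 1724, 1644 and 1443 against 1145, 747 and 1069, while the 28 cell cycle genes had a median of -0.018.

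**Figure D5:**
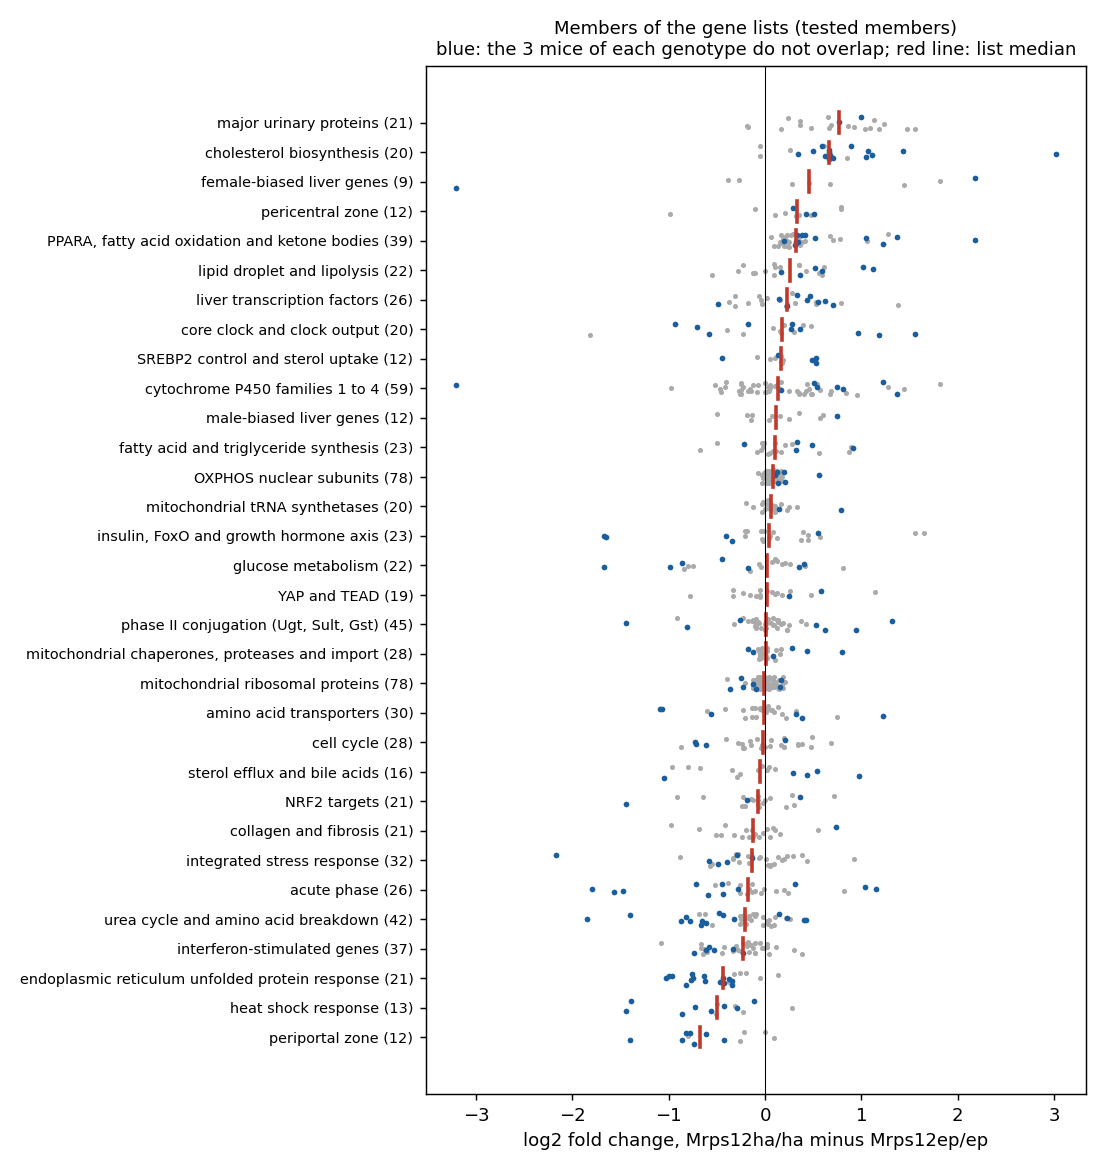
Each point is a tested member of a gene list (number of members in brackets) at its log2 fold change, Mrps12ha/ha minus Mrps12ep/ep, in blue where the 3 mice of each genotype do not overlap. Red lines mark the list medians, from -0.68 for periportal genes to 0.76 for major urinary proteins, while the median of all tested genes is -0.0017.

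Of the 681 genes lower in Mrps12ha/ha at an unadjusted p under 0.05, the wild-type mean was nearer to Mrps12ep/ep on the log2 scale for 488 (71.7%), and of the 639 higher genes for 373 (58.4%), against 54.7% of all genes. These genes were chosen by the contrast between the mutants, so the shares are a description. The wild-type mean includes the livers with muscle RNA and the liver with high acute phase genes.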

How the data were processed

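Total RNA from whole livers was sequenced by the submitters (Illumina TruSeq). The authors trimmed the reads with Trim Galore 0.4.1 (cutadapt 1.18, with FastQC 0.11.8), quantified GENCODE transcripts with Salmon 1.1.0 under a stranded setting with corrections for sequence and GC bias, summed the estimates per gene with tximport, left out mitochondrially encoded transcripts and normalized with DESeq2. The deposited values are normalized counts, 1 pooled column per mouse, and the authors' other tables were not used. Each low value was a whole multiple of the value of 1 read (100% of low values), which gave the rounded read estimates per liver. Samples were grouped by genotype. limma 3.58.1 (R 4.3.3) was fitted to log2(normalized count + 1) of all 9 livers, with eBayes trend, for genes with a mean of at least 10; fold changes on that scale understate low genes. Tests count mice as replicates. Named genes were those the study discusses, the 12 per direction with the smallest p (mean of at least 100, no overlap, no predicted genes, after any that passed), and up to 6 members per list with the smallest p; others are said to be chosen after their values. The genes compared and the lists were chosen with earlier results of these data known. The code of the fit was also run on simulated counts with the same dispersion in every gene and liver. The real livers differ in spread (array weights of 0.43 to 2.38), so that run does not test the fit on them. Summaries used Python 3.11.15 and pandas 2.3.3. Alternatives are given in the closing section. Ranges of adjusted p over the alternatives cover the 21 planned ones, not the 3 added after the data were seen. The values of a few list members are not reported here.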

Additional observations from a re-analysis of the deposited data

How the results depend on the processing

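The number of genes past the threshold was 1 in the fit on all livers and 1 under pseudocounts of 0.1 and 8, a higher filter (mean of 50) or none, re-centring, quantile normalization, thinned reads and limma-voom. It was 18 on the 2 mutant genotypes alone, 13 with array weights, 6 with the replicate block and 4 with robust eBayes. Same-numbered mutant livers correlated at -0.0066, -0.0044 and 0.0524 in their deviations from the genotype means. With 3 mice per genotype, these values cannot show whether same-numbered mice share a litter or a batch. Leaving out 1 mouse gave 0 to 11 genes past the threshold (11 and 10 without wild-type mice 1 and 3), 803 to 1644 genes at an unadjusted p under 0.05 (1320 with all livers), 0 to 6 named genes and 0 to 2 list members. Added after seeing the data, leaving out wild-type mice 1 and 2 gave 18, the mutants with array weights 33, and limma-voom on the mutants 28. Named genes past the threshold, 1 with all livers, were 9, 7, 3 and 2 in those 4 planned fits in the same order, and 9, 16 and 13 in the added ones. List members, 0 with all livers, were 5, 2, 1 and 1, and 5, 10 and 6. Gm10524 passed in all but the fits without Mrps12ep/ep mouse 1 or Mrps12ha/ha mouse 3. No named gene called in any fit changed direction. The count of genes at an unadjusted p under 0.05 was 2419 with array weights and 2494 and 1969 in the last pair of added fits. DESeq2 and edgeR were not run, and limma-voom on the recovered reads was run in their place. Depth limits the shallowest livers, Mrps12ep/ep mouse 3 and Mrps12ha/ha mouse 1.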
